A study of Mus musculus with 12 samples.

Results

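Mitosis and spindle genes encode the proteins that take a cell from late interphase through chromosome segregation to cytokinesis. The set holds 50 named genes, from the cyclin B and Cdk1 switch to the condensin subunits that fold mitotic chromosomes. Its members are the probe sets of the array that the platform annotation pairs with 1 of these symbols and no other. In all, 110 of 45037 probe sets met that rule and covered 49 of the 50 genes, of 18193 genes with a probe set of their own. Ccnb1, a B-type cyclin, had no such probe set in the annotation used here and was not analysed here. Each gene is represented by its brightest probe set over the 12 arrays. A probe set was tested where its scaled signal reached 100 in at least 3 arrays, which 27041 of all probe sets and 48 of the 49 genes did. By the suffix of their names, the probe sets of Aurkb, Cdc20, Cdc25c, Incenp, Kif2c, Kif22 and Ncaph (x type) may bind unrelated transcripts too, and those of Nek2, Pbk and Prc1 (s type) match more than 1 transcript. Kif15, a kinesin that backs up Kif11 at the spindle, did not reach that signal, with values between 5 and 51 on the 12 arrays.

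Spleen RNA came from 12 BALB/c mice, by the design text of the series, and was measured on 12 arrays. At 4 months there were 3 Il1rn-deficient mice (ko) and 3 wild-type mice (wt), and at 1 month again 3 ko and 3 wt. The product of Il1rn, an antagonist of the IL-1 receptor, keeps IL-1 from binding, and BALB/c mice without it develop arthritis spontaneously. The title of the series asks for arthritis-related genes that belong to a phase, and the labels give neither the allele nor the sex of the mice. The deposited signals are linear intensities, and all differences are on the scale of log2(scaled signal + 32), which understates the change of dim probe sets. A probe set is called where limma's Benjamini-Hochberg adjusted p over all 27041 probe sets is under 0.05.

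Entry into mitosis is driven by Cdk1 bound to B-type cyclins, and its kinases, motors and checkpoint proteins are made mainly in the late part of the cell cycle. Their transcripts are low in resting cells and rise together in dividing ones, so that in a tissue sample they follow the cells in cycle. In the mouse spleen these are mostly precursors of red cells, granulocytes and platelets in the red pulp, which is a site of blood cell formation in mice, and activated lymphocytes in the white pulp. In a whole-spleen sample, fewer dividing cells and less of a transcript in each of them cannot be told apart. Many of these genes carry a cell cycle homology region (CHR) near the start of transcription. The DREAM complex binds it in resting cells and holds the gene silent, while B-Myb and FoxM1 act through it in dividing cells. CCAAT boxes, bound by NF-Y, often lie upstream of it.

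The promoters below are those of the 6 members with the smallest p for ko against wt at 4 months among members with an entry in RefSeq's promoter sequences (GRCm38.p6). They are shown because the CHR and CCAAT letters recur over the set. Each line gives the 250 bases before the annotated start, 5′ to 3′ on the strand of the gene. Capitals mark TTTGAA or its complement TTCAAA, the CHR letters, and CCAAT or its complement ATTGG. Matches after the start lie outside these lines, such as CHR letters 4 bases after it in Ccnb2 and 39 in Ect2. Ect2 lies at chr3:27153879-27154128 on the minus strand, Ube2c at chr2:164769679-164769928 on the plus strand and Ccnb2 at chr9:70421555-70421804 on the minus strand. Nek2 is at chr1:191821223-191821472 and Kif11 at chr19:37376132-37376381, both on the plus strand, and Ckap2 at chr8:22185820-22186069 on the minus strand.
Ect2: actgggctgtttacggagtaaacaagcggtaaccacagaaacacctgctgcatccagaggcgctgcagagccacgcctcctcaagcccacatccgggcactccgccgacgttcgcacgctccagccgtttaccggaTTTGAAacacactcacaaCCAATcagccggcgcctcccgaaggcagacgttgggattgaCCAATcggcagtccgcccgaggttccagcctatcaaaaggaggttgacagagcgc
Ube2c: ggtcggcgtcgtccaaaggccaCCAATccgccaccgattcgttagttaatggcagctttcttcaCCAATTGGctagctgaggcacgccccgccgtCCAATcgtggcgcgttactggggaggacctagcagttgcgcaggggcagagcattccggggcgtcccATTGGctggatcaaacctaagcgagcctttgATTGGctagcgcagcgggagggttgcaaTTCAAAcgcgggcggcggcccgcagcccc
Ccnb2: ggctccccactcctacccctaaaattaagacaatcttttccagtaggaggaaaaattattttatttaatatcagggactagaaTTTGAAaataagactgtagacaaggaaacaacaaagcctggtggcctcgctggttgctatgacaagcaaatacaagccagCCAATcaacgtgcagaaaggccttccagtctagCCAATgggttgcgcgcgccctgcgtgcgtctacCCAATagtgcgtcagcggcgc
Nek2: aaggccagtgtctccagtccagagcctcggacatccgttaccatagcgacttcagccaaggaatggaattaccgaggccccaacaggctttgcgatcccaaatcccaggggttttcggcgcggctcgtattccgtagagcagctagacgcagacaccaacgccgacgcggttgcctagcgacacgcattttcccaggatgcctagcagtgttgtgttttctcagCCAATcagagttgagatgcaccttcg
Kif11: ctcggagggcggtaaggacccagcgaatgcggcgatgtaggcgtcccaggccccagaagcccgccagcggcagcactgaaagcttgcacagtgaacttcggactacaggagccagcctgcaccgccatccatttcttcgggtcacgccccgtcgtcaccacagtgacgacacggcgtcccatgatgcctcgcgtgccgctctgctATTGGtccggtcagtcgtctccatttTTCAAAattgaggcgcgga
Ckap2: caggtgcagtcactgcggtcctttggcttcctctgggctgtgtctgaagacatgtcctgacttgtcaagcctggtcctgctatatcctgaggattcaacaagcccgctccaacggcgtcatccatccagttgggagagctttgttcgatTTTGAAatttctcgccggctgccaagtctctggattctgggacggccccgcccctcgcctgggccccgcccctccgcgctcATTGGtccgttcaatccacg

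In these windows Ube2c held 6 CCAAT matches, of which an overlapping pair shares its letters, and 1 CHR match whose first base was 29 bases before the start. Kif11 had its CHR match at 19 and its CCAAT match at 45 bases before the start. Relative to the start, the CHR match was at -114 in Ect2, -167 in Ccnb2 and -101 in Ckap2. There it lay upstream of the CCAAT matches, at -96 and -55 in Ect2, -87, -54 and -21 in Ccnb2, and -20 in Ckap2. The CHR matches of Ect2 and Ccnb2 after the start, at 39 and 4, lay downstream of these CCAAT matches. Nek2 held a CCAAT match at 26 bases before the start and no TTTGAA in either orientation. Of the 50 members, 40 had a promoter entry, read here from 250 bases before to 50 after the start. A gene was counted if any of its promoter entries held the letters. TTTGAA or its complement stood in 29 of these 40 (72.5%), against 14.6% of the 9962 genes tested on the array with an entry. Of all 27025 genes with an entry, 20.2% held it. It lay within 100 bases before to 50 after the start in 27 of the 40 (67.5%), against 5.95% of the tested genes. CCAAT or ATTGG was found in 28 (70%), against 42.5% of the tested genes, and both motifs in 24 (60%), against 5.65%. For E2F-type sites the letters TTTCGCG were searched on either strand, and the form with TTTGGCG as well as that with TTTCCCG was counted too. Any of these stood in 7 members (17.5%), against 10.9% of the tested genes, and in 48.7% of 39 DNA replication genes with an entry. The CHR variant TTTAAA was in 9 (22.5%), against 10.9%. These counts describe letters in a window. At 4 months the median log2 difference was 0.70 over the 28 tested members with TTTGAA, of which 13 were called, and 0.68 over the 10 without it, of which 5 were called. It was 0.72 over the 27 with a CCAAT match, of which 15 were called, and 0.56 over the 11 without, of which 3 were called. With both motifs it was 0.72 over 24 members, 13 of them called, and in the other 14 it was 0.60, with 5 called. The differences between these subsets were not tested.

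Median signals of the arrays were 113 to 148, and 52.1% to 59.2% of the probe sets on an array had signals of at least 100. Precision is limited by there being 3 arrays in a group. The probe set of Il1rn with the largest difference was lower in ko at both ages, at -2.17 at 4 months and -1.70 at 1 month (limma adjusted p = 0.0034 and 0.0403), while its other 2 probe sets were not called at either age. Of the spleen's own cell types, no tested list of mature B cell, T cell or red pulp macrophage markers had a gene under 100 on all arrays. Several arrays stood apart. Pancreas genes in wt replicate 2 at 4 months exceeded their median over the arrays by 7.60 on the log2 scale, against -0.24 to 0.66 for the other 11 arrays. In wt at 4 months replicate 1, Gapdh had a 3′ over 5′ ratio of 0.999, against 0.649 to 0.816 elsewhere. By their highest signal the arrays also fell into a low set of 6 and a high set of 6. The low set held, at 4 months, ko replicate 2 and wt replicate 3, and at 1 month every ko replicate and wt replicate 3. What the sets stand for is not given in the labels.

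Transcripts of mitosis and spindle genes were lowest in wt spleens at 4 months, intermediate in ko spleens at 4 months and highest at 1 month. The mean log2 signal over the 48 tested genes was 10.44, 10.58 and 10.55 in the ko arrays at 4 months, against 9.81, 10.17 and 9.64 in the wt arrays of that age. At 1 month it was 11.51, 11.54 and 11.63 in ko, against 11.61, 11.44 and 11.32 in wt. As means these were 10.53 ± 0.08 in ko and 9.87 ± 0.27 in wt at 4 months, and 11.56 ± 0.06 in ko and 11.46 ± 0.15 in wt at 1 month (SD, n = 3 each). The 2 genotypes did not overlap at 4 months and overlapped at 1 month. Group means ran in the order wt at 4 months, ko at 4 months, wt at 1 month, ko at 1 month in 30 genes, and with the 1-month groups exchanged in 16. Smc4 and Foxm1 had orders of their own, with ko at 4 months lowest for Smc4 and wt at 1 month below ko at 4 months for Foxm1. In 38 genes all 3 ko arrays at 4 months lay above the wt arrays of that age and below all 6 arrays at 1 month. The share of all tested probe sets with this joint pattern was not computed. Among them, 10.9% had the ko arrays at 4 months all above the wt arrays of that age. In 18.2% the ko arrays at 4 months all lay below the ko arrays at 1 month. Within wt at 4 months, replicate 2 had the highest signal in 40 of the 48 genes and replicate 3 the lowest in 34. Replicate 2 is the array with the pancreas transcripts, and what it adds to the spread of the wt group was not tested.

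**Figure D1:**
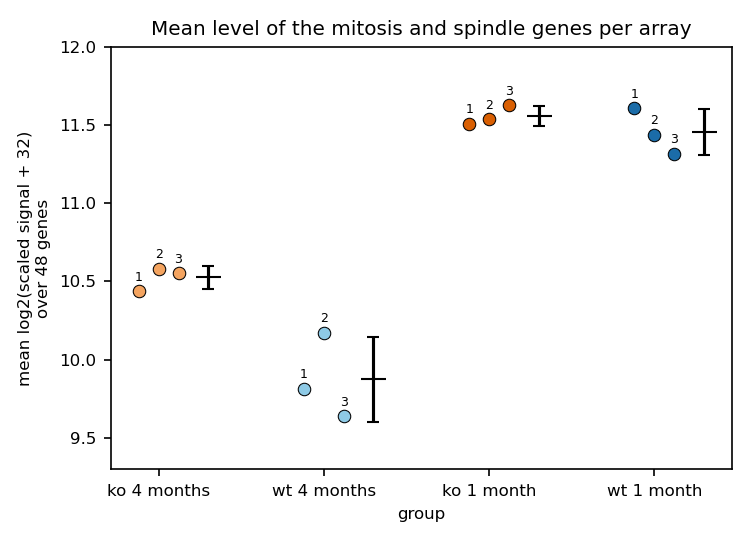
Mean log2(scaled signal + 32) over the 48 tested mitosis and spindle genes for each of the 12 arrays (points, numbered by replicate), with the mean and SD of the 3 arrays of a group beside them. The ko arrays at 4 months lie between 10.44 and 10.58, above the wt arrays of that age (9.64 to 10.17) and below every array at 1 month.

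**Figure D2:**
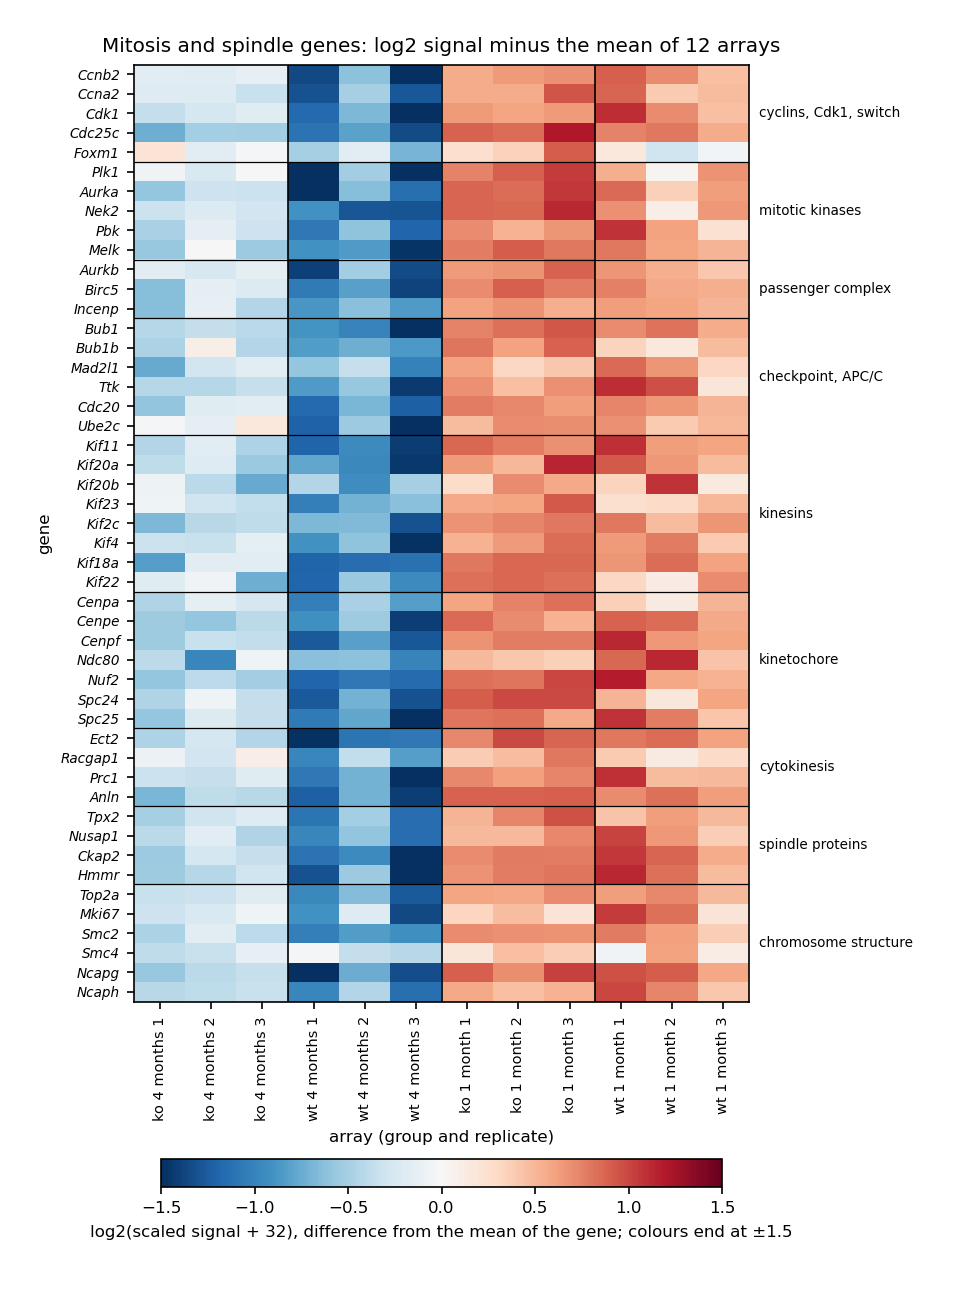
Log2 signal of each of the 48 genes (rows, by role) on each array (columns), minus the mean of that gene over the 12 arrays, with colours ending at 1.5 in either direction. The wt arrays at 4 months are lowest in 47 genes as a group mean, and their replicate 2 has the highest signal of the 3 in 40 rows.

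At 4 months, 21 of the 48 tested genes were higher in ko than in wt spleens and 0 were lower. Among all tested probe sets, 1.78% were called higher and 0.518% lower (2.3% in either direction). The median log2 difference over the 48 genes was 0.68, with a range of -0.01 (Smc4) to 1.15 (Ube2c), and 47 were above 0. The median over all tested probe sets was -0.01. In 38 of the 48 the ko arrays all lay above the wt arrays, a pattern found in 10.9% of all tested probe sets.

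The cyclins and their kinase were among the called genes. Of the 5 tested members of the entry switch, 3 rose, and the median was 0.79. Ccnb2, a B-type cyclin that activates Cdk1, had signals of 4888, 4816 and 5030.3 in ko spleens at 4 months, against 2131, 3567 and 1902 in wt spleens. At 1 month, Ccnb2 stood at 8042, 8514 and 8851 in ko and 10226, 8972 and 7519.6 in wt spleens. The 4-month groups did not overlap, the 1-month groups did, and the log2 difference at 4 months was 1.00 (SE 0.19, limma adjusted p = 0.0103). Cdk1, the kinase at the centre of mitotic entry, was at 3511, 3749 and 3973 in ko spleens at 4 months, against 1996, 2806 and 1577 in wt spleens. At 1 month, Cdk1 stood at 7013, 6841 and 7042 in ko and 9762, 7398 and 6195 in wt spleens. Again only the 4-month groups were apart, with a difference of 0.84 (SE 0.19, limma adjusted p = 0.0262). Ccna2, a cyclin of S phase and early mitosis, rose by 0.79 (SE 0.20). Cdc25c, a phosphatase that activates Cdk1, was not called at 0.50 (SE 0.20). Foxm1, a transcription factor of late cell cycle genes, had signals of 349.9, 261 and 293 in ko spleens at 4 months, against 203, 264 and 172 in wt spleens. At 1 month, Foxm1 stood at 362, 388 and 590.1 in ko and 338, 237 and 290.1 in wt spleens. Its groups overlapped at 4 months and were apart at 1 month, and neither difference was called, with 0.45 (SE 0.22, limma adjusted p = 0.327) at 4 months.

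Of the 5 mitotic kinases 2 rose, and in all 5 the ko arrays lay above the wt arrays at 4 months. Plk1, which acts on centrosomes, kinetochores and cytokinesis, had signals of 963, 851 and 1008 in ko spleens at 4 months, against 336, 685 and 291 in wt spleens. At 1 month, Plk1 stood at 1701, 1898 and 2112 in ko and 1480.5, 1030.2 and 1618 in wt spleens. The ko arrays were above the wt arrays at both ages, and the 4-month difference was 1.14 (SE 0.24, limma adjusted p = 0.0203). Nek2, which loosens the link between centrosomes, had 1026, 1118 and 1047 in ko spleens at 4 months, against 673, 509 and 508 in wt spleens. At 1 month, Nek2 stood at 2396, 2371 and 2856 in ko and 2091, 1379.7 and 2048 in wt spleens. Its groups were apart at both ages too, with 0.89 (SE 0.17, limma adjusted p = 0.0114) at 4 months. Pbk, a mitotic kinase, was at 1661, 2139 and 1880.2 in ko spleens at 4 months, against 1101, 1531 and 1011 in wt spleens, with 3868, 3389.8 and 3746 in ko and 4999, 3577 and 2757 in wt spleens at 1 month. Its 4-month groups did not overlap, but the difference of 0.64 (SE 0.20, limma adjusted p = 0.106) did not pass the threshold. Aurka, which builds the spindle poles, and Melk, a kinase of dividing cells, were not called either, at 0.72 (SE 0.20) and 0.71 (SE 0.19).

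The chromosomal passenger complex corrects wrong attachments of chromosomes to the spindle and later guides cytokinesis. Aurkb, its kinase, had signals of 1194, 1141 and 1230.4 in ko spleens at 4 months, against 493, 935 and 515 in wt spleens. At 1 month, Aurkb stood at 2113, 2168 and 2527 in ko and 2149, 1991 and 1799.9 in wt spleens. The 4-month groups were apart and the 1-month groups overlapped, and Aurkb rose by 0.90 (SE 0.19, limma adjusted p = 0.0205). Birc5 (survivin), which anchors the complex at the centromere, was at 3551, 5044 and 4827 in ko spleens at 4 months, against 2658, 3153 and 2096 in wt spleens, with 9069, 10398 and 9460.5 in ko and 9436, 8252 and 8141 in wt spleens at 1 month. Every ko array at 4 months exceeded the wt arrays of that age, and the difference was 0.76 (SE 0.16, limma adjusted p = 0.0231). Incenp, the scaffold, was at 4056, 5797 and 4662 in ko spleens at 4 months, against 3445, 4070.1 and 3493 in wt spleens, with 9599, 10117 and 9235 in ko and 9782, 9539 and 8985 in wt spleens at 1 month. Here the 4-month groups overlapped, and the difference of 0.38 (SE 0.14, limma adjusted p = 0.18) was not called.

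Among checkpoint and APC/C genes, 3 of 6 rose. Bub1, a checkpoint kinase at the kinetochore, had signals of 1001, 1053 and 1014 in ko spleens at 4 months, against 715, 658 and 458 in wt spleens. At 1 month, Bub1 stood at 2293, 2432 and 2602 in ko and 2243, 2402 and 2001 in wt spleens. Its 4-month groups were apart, with 0.74 (SE 0.16, limma adjusted p = 0.0205). Ube2c, the enzyme that supplies ubiquitin to the APC/C, had 8786, 8145 and 10039.8 in ko spleens at 4 months, against 3841, 6110.4 and 2744 in wt spleens. At 1 month, Ube2c stood at 12446, 14693 and 14588 in ko and 14382, 11759.7 and 12698 in wt spleens. The lowest ko array at 4 months exceeded the highest wt array, and the difference of 1.15 (SE 0.21, limma adjusted p = 0.0088) was the largest of the 48. Cdc20, which activates the APC/C, rose by 0.71 (SE 0.16). Mad2l1, which holds Cdc20 inactive until chromosomes are attached, was at 2122, 2929.6 and 3211 in ko spleens at 4 months, against 2384, 2818 and 1771 in wt spleens, with 5477, 4466 and 4771 in ko and 6511, 5728 and 4454 in wt spleens at 1 month. Its groups overlapped at both ages, and the 4-month difference was 0.25 (SE 0.19, limma adjusted p = 0.577). Bub1b and Ttk, the other checkpoint kinases, were not called, at 0.54 (SE 0.16) and 0.55 (SE 0.23).

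Of 8 tested mitotic kinesins, motors that move on or shape spindle microtubules, 2 rose. Kif11, which pushes the spindle poles apart, had signals of 1016, 1241 and 1004 in ko spleens at 4 months, against 587, 704 and 500.5 in wt spleens. At 1 month, Kif11 stood at 2569, 2398 and 2262 in ko and 3027, 2173 and 2125 in wt spleens. Only the 4-month groups were apart, with 0.84 (SE 0.17, limma adjusted p = 0.0144). Kif18a, which damps the movements of chromosomes at the spindle equator, was at 327, 530.1 and 538 in ko spleens at 4 months, against 244, 256 and 259 in wt spleens. At 1 month, Kif18a stood at 1067, 1116 and 1116 in ko and 971, 1100.1 and 931 in wt spleens. The lowest ko array at 4 months, replicate 1, was still above all 3 wt arrays, and the difference was 0.77 (SE 0.17, limma adjusted p = 0.0286). Kif20b, a kinesin of cytokinesis, was at 249, 192 and 145 in ko spleens at 4 months, against 188, 124 and 179 in wt spleens, with 328, 453 and 411 in ko and 342, 601 and 298 in wt spleens at 1 month. Those groups overlapped, and the difference of 0.21 (SE 0.26, limma adjusted p = 0.747) was not called. The 5 other tested kinesins lay between 0.39 (Kif2c, which takes microtubule ends apart) and 0.73 (Kif4, which acts on chromosome arms and the central spindle), with none called.

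At the kinetochore, the structure that ties a chromosome to the spindle, 3 of 7 genes rose. Spc24, a subunit of the Ndc80 complex that holds microtubule ends, had signals of 739.8, 982 and 795 in ko spleens at 4 months, against 411, 617 and 394 in wt spleens. At 1 month, Spc24 stood at 1963, 2069.7 and 2069.6 in ko and 1472, 1155 and 1560.1 in wt spleens. The ko arrays exceeded the wt arrays at both ages, with 0.80 (SE 0.18, limma adjusted p = 0.0259) at 4 months. Cenpf, a large protein of the outer kinetochore, was at 1486, 1722 and 1671 in ko spleens at 4 months, against 891, 1227 and 884 in wt spleens, with 3490.5, 3723 and 3719 in ko and 4789.8, 3425 and 3286 in wt spleens at 1 month. Its 4-month groups were apart, and the difference was 0.70 (SE 0.16, limma adjusted p = 0.0342). Nuf2, a further Ndc80 subunit, rose by 0.64 (SE 0.16), and Spc25, the partner of Spc24, was not called at 0.74 (SE 0.19). Ndc80 itself was at 228, 141 and 295 in ko spleens at 4 months, against 189, 191 and 138 in wt spleens, with 445, 417 and 404 in ko and 586, 714 and 428 in wt spleens at 1 month. In Ndc80 the groups overlapped, and the difference of 0.27 (SE 0.24, limma adjusted p = 0.626) was not called, so that 2 of the 4 subunits of this complex passed the threshold. Cenpa, the histone H3 variant of centromeres, and Cenpe, a kinetochore motor, had 0.50 (SE 0.16) and 0.45 (SE 0.19) and were not called.

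Cytokinesis genes had 2 calls among 4, and spindle proteins 1 among 4. Ect2, which activates RhoA to form the contractile ring, had signals of 932, 1069 and 945 in ko spleens at 4 months, against 441, 590.2 and 597 in wt spleens. At 1 month, Ect2 stood at 2143, 2597 and 2402 in ko and 2266, 2339.8 and 1973 in wt spleens. The 4-month groups were well apart, and the difference was 0.83 (SE 0.15, limma adjusted p = 0.00852), the smallest p of the 48. Prc1, which bundles the microtubules of the central spindle, was at 1971, 1928 and 2171 in ko spleens at 4 months, against 1158, 1498 and 858 in wt spleens, with 4079, 3805 and 4117 in ko and 5310.1, 3449 and 3455 in wt spleens at 1 month. Its difference was 0.81 (SE 0.19, limma adjusted p = 0.0359). Racgap1, the partner of Kif23 in centralspindlin, was at 1278, 1110.0 and 1455 in ko spleens at 4 months, against 677, 1044 and 751 in wt spleens, with 1783, 1886 and 2381 in ko and 1792, 1497 and 1661 in wt spleens at 1 month. Although its 4-month groups did not overlap, the difference of 0.63 (SE 0.17, limma adjusted p = 0.0727) was not called, and neither was that of Anln, a scaffold of the ring, at 0.63 (SE 0.16). Ckap2, a microtubule-associated protein of the spindle, had 915, 1118 and 1047 in ko spleens at 4 months, against 606, 679 and 446 in wt spleens. At 1 month, Ckap2 stood at 2214, 2335 and 2303 in ko and 2837, 2486 and 1996 in wt spleens. Only its 4-month groups were apart, with 0.81 (SE 0.17, limma adjusted p = 0.0178). Hmmr, a spindle and centrosome protein, was at 1111, 1199.6 and 1307 in ko spleens at 4 months, against 633, 1097 and 529.9 in wt spleens, with 2598, 2780.4 and 2857 in ko and 3583, 2899 and 2255 in wt spleens at 1 month, and had a difference of 0.72 (SE 0.22, limma adjusted p = 0.101). Nusap1, which bundles microtubules near chromosomes, was at 4228, 4973 and 4071 in ko spleens at 4 months, against 2821, 3709 and 2511 in wt spleens, with 7843, 7817 and 9213 in ko and 11340.4, 8789 and 7225 in wt spleens at 1 month, and had 0.56 (SE 0.18, limma adjusted p = 0.113). In Hmmr and Nusap1 the 4-month groups were apart without passing the threshold, and Tpx2, which activates Aurka, was not called at 0.58 (SE 0.18).

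Of 6 chromosome structure genes 3 rose. Top2a, the topoisomerase that untangles sister chromatids, had signals of 4869, 4889 and 5385 in ko spleens at 4 months, against 3116, 3883 and 2549 in wt spleens. At 1 month, Top2a stood at 9264, 9189 and 10050.4 in ko and 9461, 10132 and 8575 in wt spleens. The 4-month groups were apart and the 1-month groups interleaved, with a 4-month difference of 0.68 (SE 0.15, limma adjusted p = 0.0225). Smc2, a core ATPase subunit of condensin, was at 3744, 4642 and 3976 in ko spleens at 4 months, against 2550.0, 2909 and 2748 in wt spleens, with 8534, 8419 and 8385 in ko and 8967, 8023 and 6742 in wt spleens at 1 month. Its difference was 0.58 (SE 0.14, limma adjusted p = 0.0321). Smc4, the partner of Smc2 in every condensin complex, was at 7939, 8147 and 9433 in ko spleens at 4 months, against 10081, 8056 and 7689 in wt spleens, with 11656, 14093 and 13279.5 in ko and 9957, 15637 and 11105 in wt spleens at 1 month. Its groups overlapped, and its difference of -0.01 (SE 0.17, limma adjusted p = 0.984) was the only one of the 48 below 0, with a sign that depended on the arrays and settings used. The condensin I subunits had 0.81 (SE 0.20) for Ncapg, which rose, and 0.48 (SE 0.18) for Ncaph, which was not called. Mki67, which coats mitotic chromosomes and is the common marker of proliferation, was at 11631, 12265 and 13718 in ko spleens at 4 months, against 7686, 12544 and 5622 in wt spleens. At 1 month, Mki67 stood at 18057, 19840.0 and 16644 in ko and 29793, 25529 and 16532 in wt spleens. The 4-month groups overlapped through wt replicate 2, and the difference of 0.62 (SE 0.24, limma adjusted p = 0.216) was not called.

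The number of calls at 4 months changed with single arrays, in these genes and over all tested probe sets. Among the 48 genes it was 9, 3 and 1 without ko replicates 1, 2 and 3. It was 5, 33 and 2 without wt replicates 1, 2 and 3. Over all tested probe sets, 1.02%, 0.91% and 0.595% were called without the ko replicates in that order, against 2.3% with all arrays. Without the wt replicates the share was 1.01%, 3.66% and 0.906%. Ect2 was called in all 6 of these fits, and Ube2c in all but the fit without ko replicate 3. Within the low array set, 1 ko against 1 wt array, the median was 0.96. Within the high set, 2 against 2, it was 0.51 with 0 called, against 0.311% of all tested probe sets. Of the 48 differences, 48 were above 0 in the low set and 47 in the high set. The lone arrays of the low set have no spread of their own, so no count of calls is given for that set. All 21 called genes had a positive difference in every alternative tried.

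**Figure D3:**
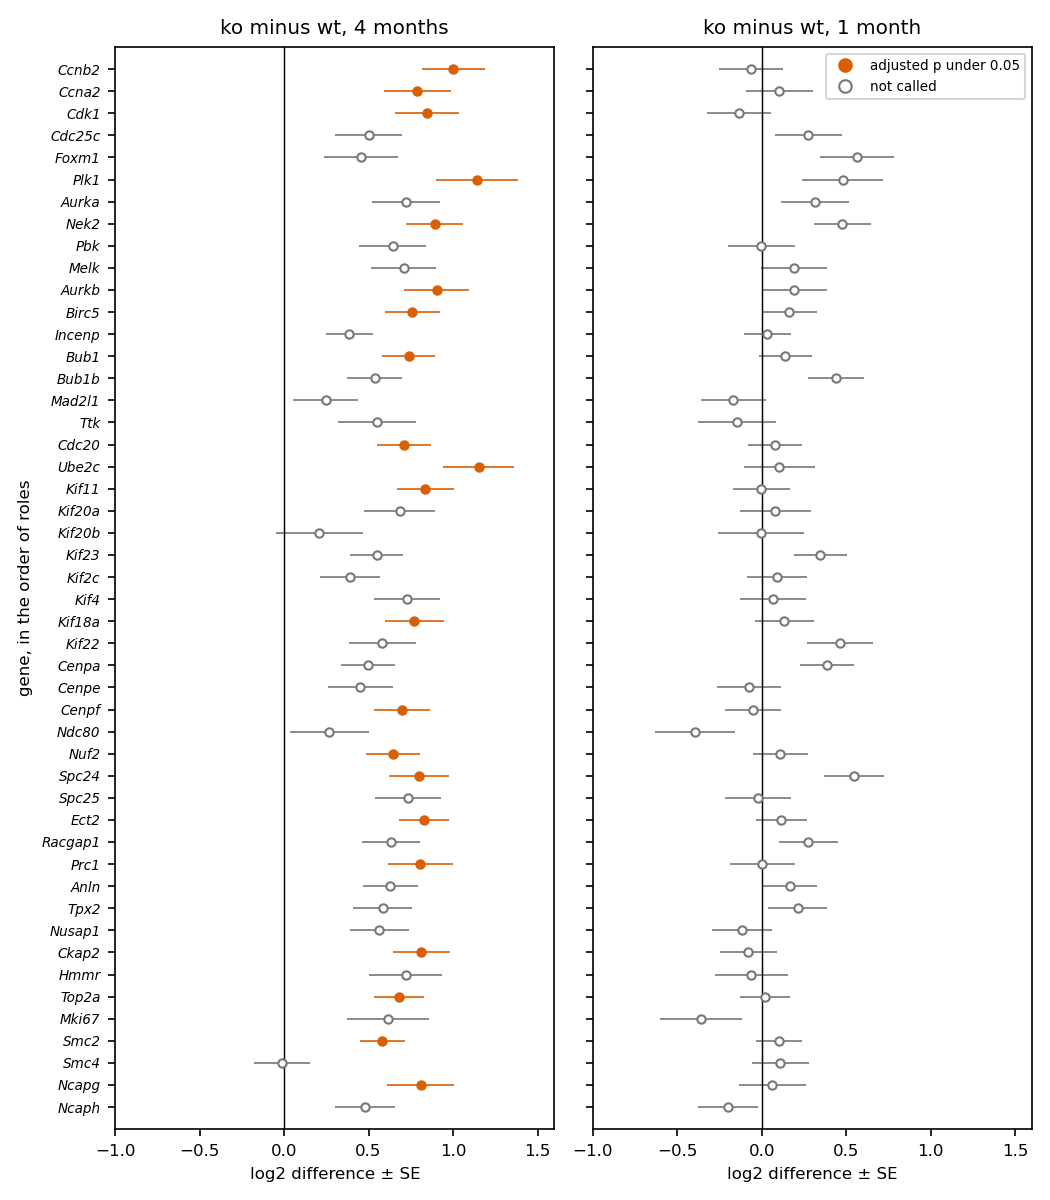
Log2 difference of ko minus wt with its SE for each of the 48 genes, at 4 months (left) and 1 month (right), with filled points for an adjusted p under 0.05. The 21 filled points are all at 4 months, where 47 genes lie above 0, and at 1 month 32 lie above 0.

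Further probe sets of the same genes gave another reading of the 4-month contrast. Of 49 tested probe sets beside the brightest, 8 were called higher, 0 lower, and 46 had a positive difference. In 3 genes a fainter probe set was called where the brightest was not. These were Kif22, a chromokinesin, with 0.75 and 0.66, Kif23, the motor of centralspindlin, with 0.99, and Ncaph with 0.71, named after their values were seen. With them, 24 of the 48 genes had at least 1 called probe set. For Smc4 the other probe sets stood at 0.15 and -0.02.

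At 1 month, 0 of the 48 genes were called in ko against wt by limma, and 7 had an unadjusted p under 0.05. Over all 27041 tested probe sets, 4273 had an unadjusted p under 0.05 at this age. Calls were rare at this age, with 0.203% of all tested probe sets higher and 0.24% lower. The median over the 48 genes was 0.10, with 32 above 0 and a range of -0.39 (Ndc80) to 0.56 (Foxm1), and the median over all tested probe sets was -0.04. In 10 genes the ko arrays all lay above the wt arrays, against 7.99% of all tested probe sets. In 0 genes they all lay below, against 11.9% of all tested probe sets. The smallest p belonged to Spc24, Nek2, Bub1b and Foxm1. Spc24 had 0.54 (SE 0.18, limma adjusted p = 0.17), Nek2 had 0.48 (SE 0.17, limma adjusted p = 0.202), and Foxm1 had 0.56 (SE 0.22, limma adjusted p = 0.232). Bub1b, a checkpoint kinase, had signals of 1854, 1609 and 1950.1 in ko and 1332, 1175 and 1462 in wt spleens at 1 month, with 745, 1113 and 759.9 in ko and 570.4, 614 and 561 in wt spleens at 4 months. Its difference at 1 month was 0.44 (SE 0.16, limma adjusted p = 0.214). In all 4 the ko arrays exceeded the wt arrays without passing the threshold. All ko arrays of this age are in the low array set, so the set and the genotype could be separated only through wt replicate 3. Against that array alone the median was 0.24, blocking on the array set gave 0.21, and leaving that array out gave 0.01, each with 0 called.

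Averaged over both ages, 18 genes were called higher and 0 lower, against 2.83% of all tested probe sets higher and 2.56% lower (5.39% in either direction). The median was 0.40. Nek2 had 0.68 (SE 0.12, limma adjusted p = 0.00567), Spc24 had 0.67 (SE 0.13, limma adjusted p = 0.0084), Plk1 had 0.81 (SE 0.17, limma adjusted p = 0.0151) and Ect2 had 0.47 (SE 0.11, limma adjusted p = 0.02), the 4 smallest p. Leaving out 1 array moved the count to between 2 (Nek2 and Spc24, without ko replicate 3 at 1 month) and 31 (without wt replicate 2 at 4 months). In the same fits 1.51% and 6.89% of all tested probe sets were called. The genotype difference was larger at 4 months than at 1 month in 46 genes, with a median of 0.62, but the test of that difference called 0 of the 48 with limma. It had 26 genes at an unadjusted p under 0.05, against 2338 of all 27041 tested probe sets. Over all probe sets it called 0.0296% higher and 0.0185% lower (0.0481% in either direction). Ccnb2 came nearest, with 1.06 (SE 0.27, limma adjusted p = 0.259), followed by Ckap2 with 0.89 (SE 0.24, limma adjusted p = 0.274), Cdk1 with 0.98 (SE 0.27, limma adjusted p = 0.28) and Kif11 with 0.84 (SE 0.24, limma adjusted p = 0.306). A change of the genotype difference between the ages was therefore not shown for any gene when all 12 arrays were used. Without wt replicate 2 at 4 months, Ccnb2, Ube2c, Cdk1 and Aurkb were called, with limma adjusted p = 0.0123, 0.0171, 0.0463 and 0.04997. These genes were named after their values were seen, and the share of all tested probe sets called in that fit is not given here. Without wt replicates 1 and 2 of that age the median was 0.89. That fit leaves replicate 3 as the only wt array at 4 months, the lowest of its group in 34 of the 48 genes.

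Mitosis and spindle transcripts fell with age in both genotypes. In wt spleens 47 of 48 genes were lower at 4 months than at 1 month and 0 were higher, against 9.67% of all tested probe sets lower and 11.8% higher. The median was -1.65, with a range of -2.06 (Ncapg) to -0.39 (Foxm1, not called), while the median over all tested probe sets was 0.09. In 46 genes all arrays at 4 months lay below all arrays at 1 month, against 13.2% of all tested probe sets. In ko spleens 46 genes were lower and 0 higher, against 9.25% lower and 13.6% higher among all tested probe sets. There the median was -1.03, with a range of -1.56 (Cdc25c) to -0.50 (Foxm1), and the median over all tested probe sets was 0.10. All 48 genes had no overlap between the ages in ko, against 18.2% of all tested probe sets. The genes not called in ko were Foxm1 and Mki67, with -0.50 (SE 0.22, limma adjusted p = 0.111) and -0.53 (SE 0.24, limma adjusted p = 0.124).

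In wt, Ckap2 fell by 2.03 on the log2 scale (SE 0.17, limma adjusted p = 2.17e-06). Kif11 differed by -1.97 (SE 0.17, limma adjusted p = 2.17e-06), Ect2 by -1.96 (SE 0.15, limma adjusted p = 1.76e-06) and Nuf2 by -1.90 (SE 0.16, limma adjusted p = 2.17e-06). These 4 had the smallest p in wt. Nuf2 signals were 667, 720.4 and 679 at 4 months, against 3566, 2345 and 2252 at 1 month in wt spleens, and 1034, 1180.2 and 1072 at 4 months, against 2782, 2726 and 3136 at 1 month in ko spleens. Its ko difference was -1.37 (SE 0.16, limma adjusted p = 8.02e-05). Anln, which links actin and the ring, had 1427, 1771 and 1725 at 4 months, against 4273, 4296 and 4310.3 at 1 month in ko spleens, and 968, 1395 and 845 against 3799, 4118 and 3565 in wt spleens. The arrays of the 2 ages were far apart in both genotypes, and the ko difference of Anln was -1.38 (SE 0.16, limma adjusted p = 8.02e-05). Ect2 differed by -1.25 (SE 0.15, limma adjusted p = 8.63e-05) and Bub1 by -1.23 (SE 0.16, limma adjusted p = 0.000118) in ko. The count of calls was 46 to 47 in wt and 43 to 45 in ko when any 1 array was left out. Over all tested probe sets, these fits called 12.9% to 23.6% in wt and 13.5% to 19.7% in ko. Within the low array set the medians were -0.95 in ko (1 array at 4 months against 3) and -1.75 in wt (1 against 1), and within the high set -1.59 in wt (2 against 2). The age comparison in each genotype shares its 4-month arrays with the genotype comparison at 4 months, so the values of these contrasts are not independent.

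**Figure D4:**
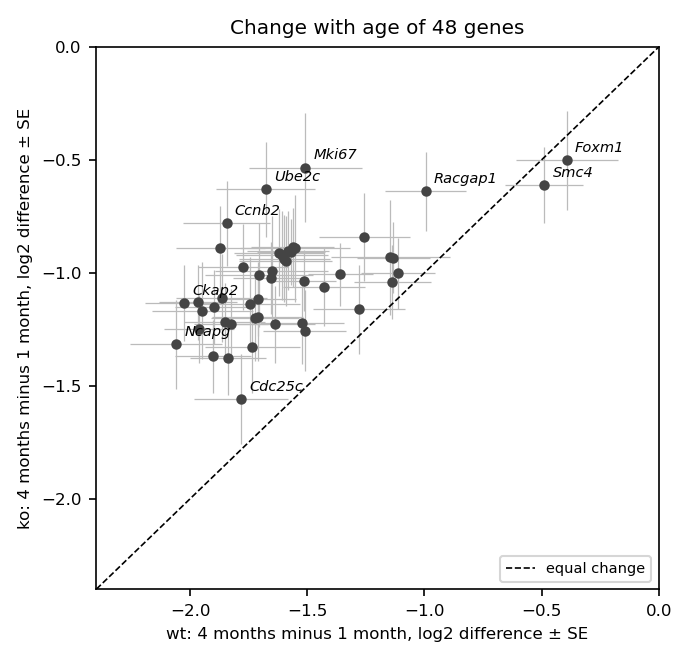
Log2 difference of 4 months minus 1 month in ko (vertical axis) against wt (horizontal axis) for the 48 genes, each with its SE, and the line of equal change. All 48 points are below 0 on both axes, and 46 lie above the line, with Foxm1 and Smc4 below it.

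Further lists of cell cycle genes gave different counts of calls at 4 months. Of all tested probe sets, 1.78% were called higher and 0.518% lower in ko at that age. With age, 9.67% were called lower and 11.8% higher in wt, and 9.25% lower and 13.6% higher in ko. Of 78 tested mitotic genes outside the set, 23 rose in ko at 4 months and 0 fell, with a median of 0.63. Cdca3, a regulator of mitotic entry, rose by 1.25 (SE 0.18), Cdkn3, a phosphatase of Cdk complexes, by 1.15 (SE 0.18), Aspm, a spindle pole protein, by 0.88 (SE 0.17), and Mybl2 (B-Myb) by 1.26 (SE 0.24). At 1 month 0 of the 78 were called by limma, with 20 at an unadjusted p under 0.05, against 4273 of all 27041 tested probe sets. With age 71 fell in wt and 59 in ko. Of 45 DNA replication and S phase genes, 7 rose at 4 months and 0 fell, with a median of 0.49. E2f8 rose by 1.25 (SE 0.19), E2f2 by 1.22 (SE 0.20), Tk1 (thymidine kinase) by 0.88 (SE 0.19) and Lig1 (DNA ligase) by 0.88 (SE 0.18). With age 43 of the 45 fell in wt and 40 in ko. The constant subunits of the APC/C and the cohesin genes are made throughout the cell cycle. Of 24 tested, 0 were called by limma in ko against wt at 4 months, and the median was 0.03. An unadjusted p under 0.05 was found for 0 of them, against 4257 of all 27041 tested probe sets. With age, 6 of the 24 fell in wt, and in ko Cdc27, Rad21 and Wapl fell and Nipbl, the cohesin loader, rose by 0.51 (SE 0.18). Of 25 genes of cell cycle arrest and quiescence, 2 rose and 2 fell at 4 months. Cdkn2c, an inhibitor of Cdk4 and Cdk6, and Gadd45a, a stress response gene, rose by 0.80 (SE 0.17) and 0.76 (SE 0.14). Tob1, which restrains proliferation, and Ccng2, a cyclin of resting cells, had -0.94 (SE 0.20) and -0.68 (SE 0.15), both called lower.

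Most erythroid, neutrophil precursor and megakaryocyte markers tested were called higher in ko at 4 months, while stem cell and precursor B cell markers were not. Of 13 tested erythroid markers, 10 were higher in ko and 0 lower, with a median of 1.00. Among all tested probe sets, 1.78% were called higher and 0.518% lower at that age. The summed signal of the list was 106527 to 119803 in ko and 48460 to 82670 in wt at 4 months, and 155667 to 172109 in ko and 148065 to 201537 in wt at 1 month. The summed signal of the 49 mitotic genes with a probe set was 104021 to 115319 in ko and 59766 to 90506 in wt at 4 months, and 205074 to 217603 in ko and 183459 to 232839 in wt at 1 month. At 1 month 0 erythroid markers were called by limma (1 at an unadjusted p under 0.05). With age 13 fell in wt and 9 in ko, against 9.67% and 9.25% of all tested probe sets. Slc4a1, the red cell anion exchanger, had signals of 18223, 15991 and 18732 in ko spleens at 4 months, against 8632, 9716 and 6097 in wt spleens, and no array of either genotype reached those of the other. Epor, the erythropoietin receptor, rose by 1.46 (SE 0.25) and Rhag, a membrane protein of the red cell Rh complex, by 1.08 (SE 0.16).

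All 9 tested megakaryocyte markers were higher in ko at 4 months, with a median of 1.12 and a summed signal of 35694 to 49011 in ko and 15086 to 25098 in wt. With age 6 of them fell in wt, whereas in ko Vwf rose by 0.64 (SE 0.20), 0 fell, and the median was 0.28. Neutrophil precursor markers were higher in ko at both ages, 10 of 11 at each, with medians of 2.80 at 4 months and 2.05 at 1 month. Among all tested probe sets, 1.78% were called higher in ko at 4 months and 0.203% at 1 month. Their summed signal was 19650 to 27351 in ko and 2253 to 4672 in wt at 4 months, and 65372 to 92663 in ko and 15570 to 22789 in wt at 1 month. No ko array overlapped a wt array of its age in that sum. From 1 to 4 months 10 of the 11 fell in each genotype, with medians of -2.52 in wt and -1.97 in ko. Stem and progenitor markers had 0 of 9 called at 4 months by limma (2 at an unadjusted p under 0.05), with a median of 0.07. Among lymphocyte markers, 1 of 6 precursor B cell genes (Rag1, -1.82 (SE 0.41)) and 1 of 6 germinal centre genes (Bcl6, -0.80 (SE 0.19)) were lower in ko at 4 months, with list medians of -0.37 and -0.44, and the precursor genes Rag2 and Vpreb1 were under 100 on all arrays. Of mature B cell, T cell, plasma cell and red pulp macrophage markers, 0 of 8, 7, 7 and 7 were called there by limma, with 3, 1, 2 and 2 at an unadjusted p under 0.05. With age, 7 of 8 mature B cell markers rose in each genotype. Of 7 red pulp macrophage, 7 T cell and 7 plasma cell markers, 6, 3 and 4 rose with age in wt. In ko 7, 7 and 5 of them rose, and 0 fell in either genotype. Among all tested probe sets, 11.8% rose with age in wt and 13.6% in ko, and 9.67% and 9.25% fell. Without wt replicate 2, which held pancreas transcripts, the 4-month medians were 0.82 for the mitotic genes, 1.27 for erythroid, 1.34 for megakaryocyte and 3.03 for neutrophil precursor markers. The part of any of these cell types in the mitotic transcripts was not tested.

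**Figure D5:**
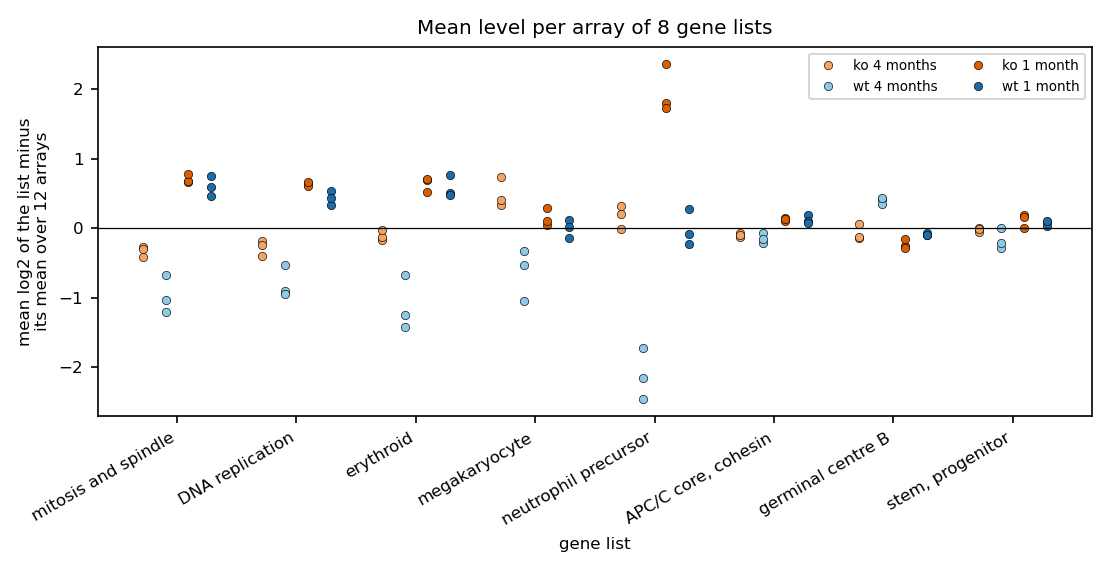
Mean log2 level of 8 gene lists on each array, minus the mean of that list over the 12 arrays, with 3 points for each group. In the mitosis, DNA replication and erythroid lists wt at 4 months is lowest and the 1-month arrays are highest, the neutrophil precursor list is higher in ko at both ages, and the APC/C core and cohesin list has a median difference of 0.03 at 4 months.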

How the data were processed

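Total spleen RNA was extracted with Trizol, labelled with biotin and hybridised to 1 Affymetrix array for each of 12 mice, per the labels. The deposited intensity values are linear MAS5 signals, per the submitters' processing notes, with no version given in the sources used here. Each array was set here to a 2% trimmed mean of 500. Signals were taken as log2(signal + 32), and probe sets reaching 100 in at least 3 arrays (27041) entered a linear model in limma 3.58.1, run under R 4.3.3 (a mean for each of 4 groups, lmFit, eBayes with trend), with Benjamini-Hochberg adjustment over all of them and a threshold of 0.05. Residual degrees of freedom were 8 and prior ones 8.27. The fit was checked on simulated data with known changes, and the outcome of that check is not given here. Genes were named through the platform annotation, where 34945 probe sets have 1 symbol, 932 several and 9160 none. Values for each array are given for the 2 genes with the smallest and the gene with the largest p for ko against wt at 4 months in each role, and for Cdk1, Mki67, Top2a and Foxm1. Full statistics go to the 4 smallest p of each other comparison, and up to 4 genes are named from each further list, plus those called against its direction. The genes and all lists were chosen with earlier results of these data known. Replicates are separate mice, per the series' design text, which gives 3 for each genotype and age. Alternatives changed scaling, offset, filter, variance model, probe set choice and arrays. Motifs were searched on both strands of RefSeq promoters (GRCm38.p6).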

Additional observations from a re-analysis of the deposited data

How the results depend on the processing

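With 3 arrays in each group, the direction of the mitosis and spindle genes was steadier than the number called. At 4 months ko against wt called 3 genes without the variance trend (Nek2, Ube2c and Ect2), 5 with only the 6 arrays compared, 0 within the high array set, and 1 to 33 when 1 array was left out. Over all tested probe sets the same fits called 0.917%, 1.34%, 0.311% and 0.595% to 3.66%, against 2.3% in the main fit. The medians were 0.96 within the low array set, 0.51 within the high set and 0.90 without wt replicates 1 and 2, these 3 alternatives being chosen after seeing the data. Over both ages the count was 9 without a filter, 2 without the trend, 30 at a threshold of 0.10 and 2 to 31 when 1 array was left out. All probe sets had 1.77%, 2.05%, 10.8% and 1.51% to 10.7% called in the same fits. Within the low set the median over both ages was 0.62. In the test of whether the genotype difference changed with age, 0 to 4 were called when 1 array was left out. The median was then 0.45 to 0.73. Without wt replicates 1 and 2 at 4 months, which leaves 1 wt array of that age, the median was 0.89. The age median in wt was -1.83 to -1.49 when 1 array was left out and -1.87 without wt replicates 1 and 2 at 4 months. In ko it was -1.19 with median centring, which shifts the median of all probe sets by -0.16 in ko and -0.12 in wt. At 1 month 0 genes were called in any alternative run.

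The sign at 4 months turned for Smc4, at 0.073 with array weights, 0.042 with the mean of all probe sets, 0.036 and 0.018 without ko replicates 1 and 2, 0.11 without wt replicate 1, 0.083 within the low set and 0.14 without wt replicates 1 and 2, and the range with 1 array left out was -0.0876 to 0.11. The cause of these changes was not tested. Replicate numbers showed no sign of pairing the mice, though correlations of deviations from means of 3 arrays cannot exclude it. The 18 correlations of same-numbered deviations lay between -0.20 and 0.21, and those of differently numbered ones between -0.20 and 0.25. With the replicate number as a block, 19 genes were called at 4 months, 0 at 1 month, 13 over both ages, 0 for the difference between ages, and 46 with age in each genotype. Of all tested probe sets, the same fit called 2.08% at 4 months and 4.8% over both ages. With age it called 20.2% in wt and 21.6% in ko.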
